A study of Homo sapiens with 12 samples.

Results

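Hepcidin and 9 other genes of iron handling were followed across HepG2 cells exposed to nobiletin, sorafenib or both. The 10 genes, HAMP, TF, TFRC, TFR2, FTH1, FTL, SLC40A1, SLC11A2, CP and TMPRSS6, were taken by their symbols from the 58735 genes of the count table. All 10 passed the filter on low counts that left 17115 genes for testing. HepG2 is an established human liver cancer line. RNA sequencing was made from 12 libraries in 4 groups of 3: Control cells with vehicle, NOB cells with 5 µM nobiletin, SOR cells with 2 µM sorafenib, and SOR+NOB cells with 5 µM nobiletin and 2 µM sorafenib. Nobiletin is a polymethoxylated citrus flavone, and sorafenib, a drug for liver cancer, inhibits several kinases. All groups were grown in the same serum-supplemented medium. How long the cells were exposed is not given in the sources used here, and no label states that the 3 libraries of a group came from separate cultures, so the p-values measure only the spread between these libraries.

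Iron circulates bound to transferrin, enters cells through transferrin receptors and is stored in ferritin. Hepatocytes secrete hepcidin, the peptide hormone that binds the exporter ferroportin and causes its degradation. Transcription of the hepcidin gene is raised by BMP and SMAD signalling and by IL6 and STAT3 signalling, and the mRNAs of ferritin, ferroportin and the transferrin receptor carry iron responsive elements, hairpins that iron regulatory proteins bind when iron is low. Binding in a 5′ UTR blocks translation, and binding in the 3′ UTR of TFRC protects the mRNA from decay.

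The iron responsive elements are shown because they are the known iron-dependent control of these mRNAs. A pattern of the known hairpin was searched in the UTRs of GENCODE 29 coding transcripts on the transcript strand: a C, 5 bases, the loop CAGTGN and 5 bases that pair with those before the loop, with G-T pairs allowed. Capitals mark the loop. The FTH1 site lies at chr11:61967573-61967602 on the minus strand, the FTL site at chr19:48965335-48965364 on the plus strand and the SLC40A1 site at chr2:189580660-189580689 on the minus strand of GRCh38, each in a 5′ UTR exon. The TFRC sites lie in its 3′ UTR exon on the minus strand, at chr3:196050978-196051007, chr3:196050574-196050603, chr3:196050509-196050538 and chr3:196050462-196050491.
FTH1: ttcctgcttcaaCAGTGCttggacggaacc
FTL: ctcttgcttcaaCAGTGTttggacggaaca
SLC40A1: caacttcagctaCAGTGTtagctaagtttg
TFRC site a: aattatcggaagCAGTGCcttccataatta
TFRC site b: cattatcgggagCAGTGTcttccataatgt
TFRC site c: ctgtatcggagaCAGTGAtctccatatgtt
TFRC site d: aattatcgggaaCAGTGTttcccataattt
The pattern was in the 5′ UTR of 0.163% of 18989 genes and in the 3′ UTR of 0.67% of 19102 genes. TF also had 1 match in its 3′ UTR. The pattern was not found in the UTRs of HAMP, TFR2, SLC11A2, CP and TMPRSS6, which says only that these letters were not in these transcripts.

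Library totals ranged from 17945656 to 25669823 counts. All 10 hepatocyte markers checked, ALB and HNF4A among them, averaged at least 1 CPM (counts scaled to a common library size) in each group. Their summed level was 43080 to 45180 CPM in Control, 27770 to 28460 in NOB, 79230 to 82380 in SOR and 30210 to 33310 in SOR+NOB, and TF is 1 of these markers. APOB, TTR and KRT18 were lower in SOR than in Control, at 15800 against 19330, 186.7 against 233.4 and 150.9 against 346.9 CPM. APOA1, SERPINA1 and HNF4A were higher in NOB than in Control, at 1789 against 1487, 4737 against 4344 and 312.3 against 294.4 CPM. In SOR and in NOB the other hepatocyte markers moved with the sum. The summed level of 10 markers of other liver cells was 210.1 to 223.5 CPM in Control, 129.1 to 136.2 in NOB, 214.4 to 232.9 in SOR and 193.9 to 215.6 in SOR+NOB, lower in NOB than in every other group, and came mostly from EPCAM and KRT19, while KRT7, DES and PTPRC were at or near 0 in every group. PECAM1 and ACTA2, of the same list, were higher in NOB than in Control, at 11.15 against 9.91 CPM and 14.25 against 11.66 CPM. The part that these shifts had in the results was not tested. Library 1 of SOR+NOB stood apart from the other libraries of its group. Its count differences from them, as chi-square per degree of freedom, were 24.63 and 17.35, against 2.692 to 5.257 for the other pairs within groups, and it had the fewest genes with a count, 20138. Member values whose call changes without it, and called ones that move by over 1.5 times, are given with and without it.

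In NOB, 8 of the 10 genes were called at an edgeR quasi-likelihood adjusted p under 0.05, against 38.2% of all genes tested (18.9% higher and 19.2% lower). TFRC, FTL and SLC11A2 rose, and HAMP, TF, TFR2, CP and TMPRSS6 fell. In SOR, 8 of 10 were called, against 41.0% of all genes (21.7% higher and 19.3% lower), and all 8 rose: TF, TFRC, TFR2, FTH1, FTL, SLC11A2, CP and TMPRSS6. In SOR+NOB against Control, 9 of 10 were called, against 64.2% of all genes (32.2% higher and 32.0% lower). HAMP, TF, TFRC, FTL and SLC11A2 rose, and TFR2, SLC40A1, CP and TMPRSS6 fell. The median log2 fold change of the 10 genes was -0.16 in NOB, 0.62 in SOR and 0.27 in SOR+NOB, against 0.01, 0.00 and -0.02 for all genes tested. These comparisons share the Control libraries, and in bulk RNA fewer cells that express a gene and less RNA per cell cannot be told apart.

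**Figure D1:**
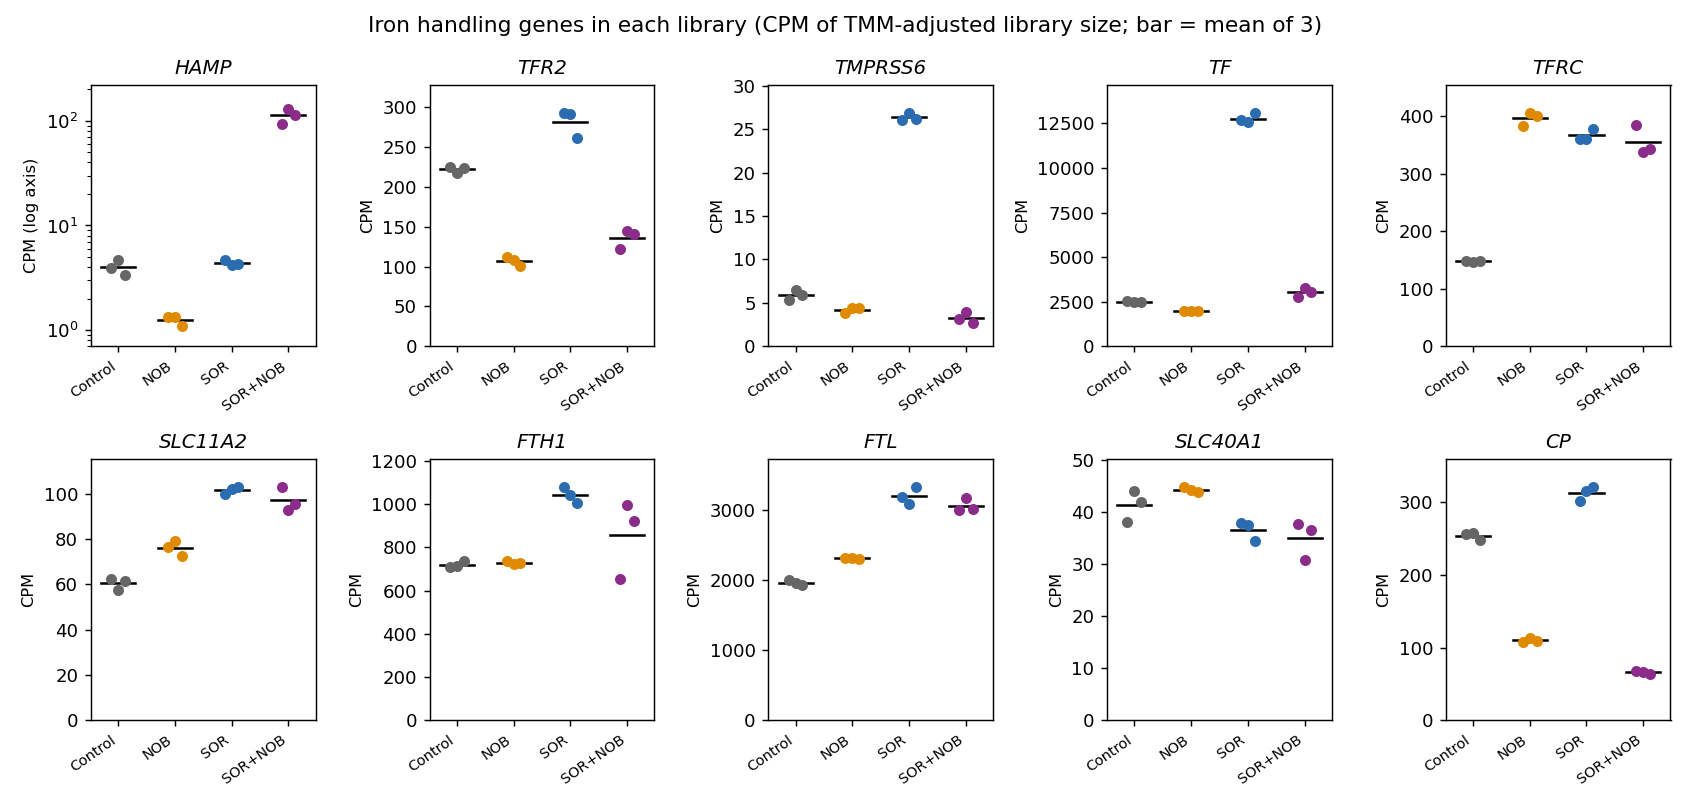
Level of each of the 10 genes in every library, in CPM of the TMM-adjusted library size, with 3 points per group and a bar at their mean. HAMP is on a log axis and the others on linear axes from 0. HAMP stands between 94.0 and 130.1 CPM in SOR+NOB and under 5 CPM elsewhere, and TF and TMPRSS6 stand highest in SOR.

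HAMP, the hormone gene (ENSG00000105697, chromosome 19, 35280716 to 35285143), was low in HepG2 and high only in the libraries with both compounds. Its level was 3.96, 4.70 and 3.40 CPM in the 3 Control libraries, 1.34, 1.33 and 1.09 CPM in NOB, 4.68, 4.22 and 4.27 CPM in SOR and 94.0, 130.1 and 113.6 CPM in SOR+NOB. The raw counts behind these were 74 to 99 in Control, 27 to 32 in NOB, 76 to 112 in SOR and 1710 to 3032 in SOR+NOB. Every SOR+NOB library stood above every other library, every NOB library stood below all others, and Control and SOR overlapped. HAMP fell in NOB by 1.68 ± 0.20 (log2 fold change ± SE, n = 3 in each group), a level 3.21-fold lower than Control, with an edgeR adjusted p of 4.08e-07. In SOR it was at 0.13 ± 0.16, with a 95% interval of -0.24 to 0.50, and was not called (adjusted p = 0.547).

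With both compounds, HAMP was 28.0-fold above Control (4.81 ± 0.13, edgeR adjusted p = 3.97e-18), 25.6-fold above SOR (4.68 ± 0.13) and 89.9-fold above NOB (6.49 ± 0.15). Among the 17115 genes ordered from the largest rise, HAMP ranked 38 against Control, 62 against SOR and 18 against NOB. The effect of nobiletin thus had opposite signs without and with sorafenib. The interaction, which is the log2 effect of nobiletin with sorafenib minus that without, was 6.36 ± 0.23 (edgeR adjusted p = 1.67e-15).

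TFR2, the second transferrin receptor, which senses iron-loaded transferrin in hepatocytes and promotes hepcidin expression (ENSG00000106327, chromosome 7, 100620416 to 100642779), moved with nobiletin by the same amount in either background. It was at 225, 218 and 223 CPM in Control, 112, 109 and 101 CPM in NOB, 292, 291 and 261 CPM in SOR and 122, 144 and 141 CPM in SOR+NOB. No libraries of these groups overlapped. TFR2 fell by 1.05 ± 0.06 in NOB against Control (edgeR adjusted p = 1.52e-11) and by 1.05 ± 0.06 in SOR+NOB against SOR (adjusted p = 3.57e-12). Its interaction was 0.00 in size, with a 95% interval of -0.21 to 0.21. Sorafenib raised it by 0.34 ± 0.06 without nobiletin and by 0.34 ± 0.06 with it.

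TMPRSS6, matriptase-2, the protease that cleaves the BMP co-receptor hemojuvelin and so lowers hepcidin expression (ENSG00000187045, chromosome 22, 37065436 to 37109713), was highest in SOR. It was at 5.32, 6.46 and 5.92 CPM in Control, 3.81, 4.36 and 4.40 CPM in NOB, 26.05, 26.9 and 26.2 CPM in SOR and 3.19, 3.95 and 2.72 CPM in SOR+NOB. The SOR libraries stood above all others, and NOB and SOR+NOB overlapped. TMPRSS6 rose 4.47-fold in SOR (2.16 ± 0.14, edgeR adjusted p = 1.82e-11), which ranked it 131 of 17115. It fell by 2.998 ± 0.15 from SOR to SOR+NOB, 7.99-fold, and its interaction was -2.51 ± 0.21 (adjusted p = 1.54e-09). Its smaller fall in NOB, -0.49 ± 0.15 with an adjusted p of 0.0125, was not called without Control library 2 (-0.42, adjusted p = 0.0621) or without NOB library 1 (-0.43, adjusted p = 0.0599). SOR+NOB against NOB was at -0.35 ± 0.16 (adjusted p = 0.0702) and was called without SOR+NOB library 2 (-0.51, adjusted p = 0.016). An antisense gene overlaps TMPRSS6 and held 2.79% as many counts.

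TF, the plasma iron carrier transferrin (ENSG00000091513, chromosome 3, 133745956 to 133796640), rose 5.12-fold in SOR and 1.21-fold in SOR+NOB. It was at 2535, 2484 and 2470 CPM in Control, 1980, 1966 and 1959 CPM in NOB, 12665, 12559 and 13080 CPM in SOR and 2755, 3275 and 3051 CPM in SOR+NOB. No libraries of these groups overlapped. The rise in SOR was 2.35 ± 0.05 (edgeR adjusted p = 4.96e-19) and ranked 105 of 17115. In SOR+NOB against Control the rise was 0.28 ± 0.05 (adjusted p = 6.46e-05). TF fell by 2.08 ± 0.05 from SOR to SOR+NOB and by 0.34 ± 0.05 from Control to NOB, an interaction of -1.73 ± 0.07 (adjusted p = 1.71e-14). The 10 genes together held 0.588% to 0.59% of counts in Control and 1.67% to 1.70% in SOR, where TF was the most abundant of them in CPM. SRPRB, which overlaps TF on the same strand with 1.78% as many counts, was at 133.6 CPM in NOB and 53.3 CPM in SOR against 65.0 CPM in Control, on the other side of Control from TF in both groups.

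TFRC, the transferrin receptor that takes iron-loaded transferrin into cells (ENSG00000072274, chromosome 3, 196027183 to 196082189), rose to a like level in all treated groups. It was at 147.5, 146.5 and 148.8 CPM in Control, 382, 405 and 400 CPM in NOB, 360, 361 and 378 CPM in SOR and 385, 338 and 342 CPM in SOR+NOB. All treated libraries stood above all Control libraries, and SOR+NOB overlapped both NOB and SOR. The rises were 2.68-fold in NOB (1.42 ± 0.05, edgeR adjusted p = 5.46e-15), 2.48-fold in SOR (1.31 ± 0.05) and 2.40-fold in SOR+NOB (1.27 ± 0.05). Nobiletin on top of sorafenib left TFRC at -0.04 ± 0.05, with a 95% interval of -0.17 to 0.08, so the interaction was -1.47 ± 0.08 (adjusted p = 4.48e-13). Without SOR+NOB library 1 that difference was -0.11 and was called (adjusted p = 0.0178). SOR+NOB against NOB was at -0.16 ± 0.05 (adjusted p = 0.0146), a call that was lost without any 1 of NOB libraries 2 and 3 and SOR+NOB libraries 2 and 3, at -0.12 to -0.15.

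The ratio of TFRC to TFR2, of CPM within a library, put these receptors side by side. It was 0.655 to 0.673 in Control, 3.41 to 3.95 in NOB, 1.23 to 1.45 in SOR and 2.35 to 3.16 in SOR+NOB, with no overlap between groups. Since it does not take the lengths of the genes into account, it shows a shift between groups and not which receptor mRNA is more abundant.

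SLC11A2, the divalent metal transporter DMT1 that moves iron out of endosomes (ENSG00000110911, chromosome 12, 50979401 to 51028566), rose with each compound. It was at 62.6, 57.4 and 61.6 CPM in Control, 76.4, 79.0 and 72.6 CPM in NOB, 100.0, 102.1 and 103.0 CPM in SOR and 103.2, 92.8 and 95.8 CPM in SOR+NOB. Control lay below NOB and NOB below both sorafenib groups, which overlapped. The rises were 0.33 ± 0.06 in NOB (edgeR adjusted p = 1.93e-04), 0.75 ± 0.06 in SOR and 0.68 ± 0.06 in SOR+NOB. SOR+NOB was at -0.06 ± 0.06 against SOR, with a 95% interval of -0.21 to 0.08, and the interaction was -0.39 ± 0.09 (adjusted p = 6.53e-04).

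FTL, the ferritin light chain (ENSG00000087086, chromosome 19, 48965301 to 48966878), had nearly the same profile as SLC11A2. It was at 1999, 1960 and 1920 CPM in Control, 2316, 2312 and 2298 CPM in NOB, 3175, 3075 and 3328 CPM in SOR and 2992, 3160 and 3016 CPM in SOR+NOB. NOB lay above Control and below both sorafenib groups, which overlapped. The rises were 0.24 ± 0.04 in NOB (edgeR adjusted p = 1.85e-04), 0.70 ± 0.04 in SOR and 0.64 ± 0.04 in SOR+NOB, and the interaction was -0.30 ± 0.06 (adjusted p = 3.98e-04). With each gene's log2 CPM centred on its own mean over the 12 libraries, FTL and SLC11A2 differed by a root mean square of 0.071, the smallest of all pairs among the 10 genes, and HAMP was at least 2.25 from every other member.

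FTH1, the ferritin heavy chain with the ferroxidase centre (ENSG00000167996, chromosome 11, 61959718 to 61967660), rose in SOR. It was at 707, 713 and 736 CPM in Control, 736, 721 and 726 CPM in NOB, 1081, 1044 and 1007 CPM in SOR and 655, 998 and 924 CPM in SOR+NOB. Library 1 of SOR+NOB was the lowest of all 12 and the other SOR+NOB libraries lay between Control and SOR, while NOB overlapped Control. FTH1 rose by 0.54 ± 0.11 in SOR (edgeR adjusted p = 0.00168) and was at 0.02 ± 0.11 in NOB, with a 95% interval of -0.24 to 0.27. In SOR+NOB against Control it was at 0.26 ± 0.11 (adjusted p = 0.0596), and without SOR+NOB library 1 it rose by 0.42 (adjusted p = 4.03e-14). SOR+NOB against NOB was likewise not called at 0.24 (adjusted p = 0.0803) and was called without that library at 0.40 (adjusted p = 1.92e-13). SOR+NOB lay below SOR by -0.28 ± 0.11 (adjusted p = 0.0422), a call lost without SOR library 1 (adjusted p = 0.0796) or SOR library 2 (adjusted p = 0.0727). Without SOR+NOB library 1 that FTH1 difference was -0.12 and was called (adjusted p = 0.0051). The interaction was -0.30 ± 0.16 (adjusted p = 0.132), -0.14 and called without SOR+NOB library 1 (adjusted p = 0.019), and -0.42 and called without SOR+NOB library 2 (adjusted p = 0.0146).

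No source used here says how reads that fit both a ferritin gene and its processed copies were counted. The 25 genes named as FTH1 pseudogenes held 1.19% as many counts as FTH1, and the 16 named as FTL pseudogenes held 0.0667% as many as FTL. Values of both ferritin genes are uncertain to the extent that reads were split. With the pseudogene counts added, FTH1 in SOR+NOB against Control was at 0.26 and was called (edgeR adjusted p = 0.0473).

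SLC40A1, the iron exporter ferroportin and the protein target of hepcidin (ENSG00000138449, chromosome 2, 189560579 to 189583758), changed little in any group. It was at 38.0, 44.1 and 41.8 CPM in Control, 44.9, 44.3 and 43.8 CPM in NOB, 37.9, 37.6 and 34.4 CPM in SOR and 37.7, 30.8 and 36.6 CPM in SOR+NOB. Both sorafenib groups lay below Control and NOB with small gaps. In SOR+NOB it was at -0.24 ± 0.08 against Control (edgeR adjusted p = 0.0174), a call lost without Control library 2 (-0.19, adjusted p = 0.094) or SOR+NOB library 2 (-0.15, adjusted p = 0.113). SOR was at -0.17 ± 0.08 (adjusted p = 0.113) and was called without SOR+NOB library 1 (adjusted p = 0.0419). NOB was at 0.10 ± 0.08, with a 95% interval of -0.09 to 0.29, and SOR+NOB lay 0.34 below NOB (-0.34 ± 0.08, adjusted p = 0.00137). SOR+NOB against SOR was at -0.07 ± 0.09 (adjusted p = 0.506), and these groups overlapped. In SOR+NOB, where HAMP mRNA was highest, SLC40A1 mRNA was 0.847 times that of Control. In SOR, where HAMP was not called, SLC40A1 mRNA was 0.888 times that of Control. The ferroportin protein was not measured.

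CP, ceruloplasmin, the ferroxidase that helps load exported iron onto transferrin (ENSG00000047457, chromosome 3, 149162410 to 149222055), fell with nobiletin and most with both compounds. It was at 257, 258 and 248 CPM in Control, 107, 113 and 109 CPM in NOB, 303, 316 and 322 CPM in SOR and 68.0, 66.3 and 64.0 CPM in SOR+NOB. No libraries of these groups overlapped. CP fell 2.32-fold in NOB (-1.21 ± 0.05, edgeR adjusted p = 2.81e-14) and 4.74-fold from SOR to SOR+NOB (-2.24 ± 0.05, adjusted p = 3.89e-19), with an interaction of -1.03 ± 0.07 (adjusted p = 8.25e-11). Sorafenib raised CP by 0.30 ± 0.05 without nobiletin and lowered it by -0.73 ± 0.05 with nobiletin. HPS3 overlaps CP on the opposite strand and held 10.6% as many counts over the 12 libraries. The strand setting of the counting is not given in the sources used here, so part of the CP reads could be from HPS3. HPS3 was at 17.7 CPM in Control and 22.7 CPM in SOR+NOB, where CP was at 254.3 and 66.1 CPM.

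**Figure D2:**
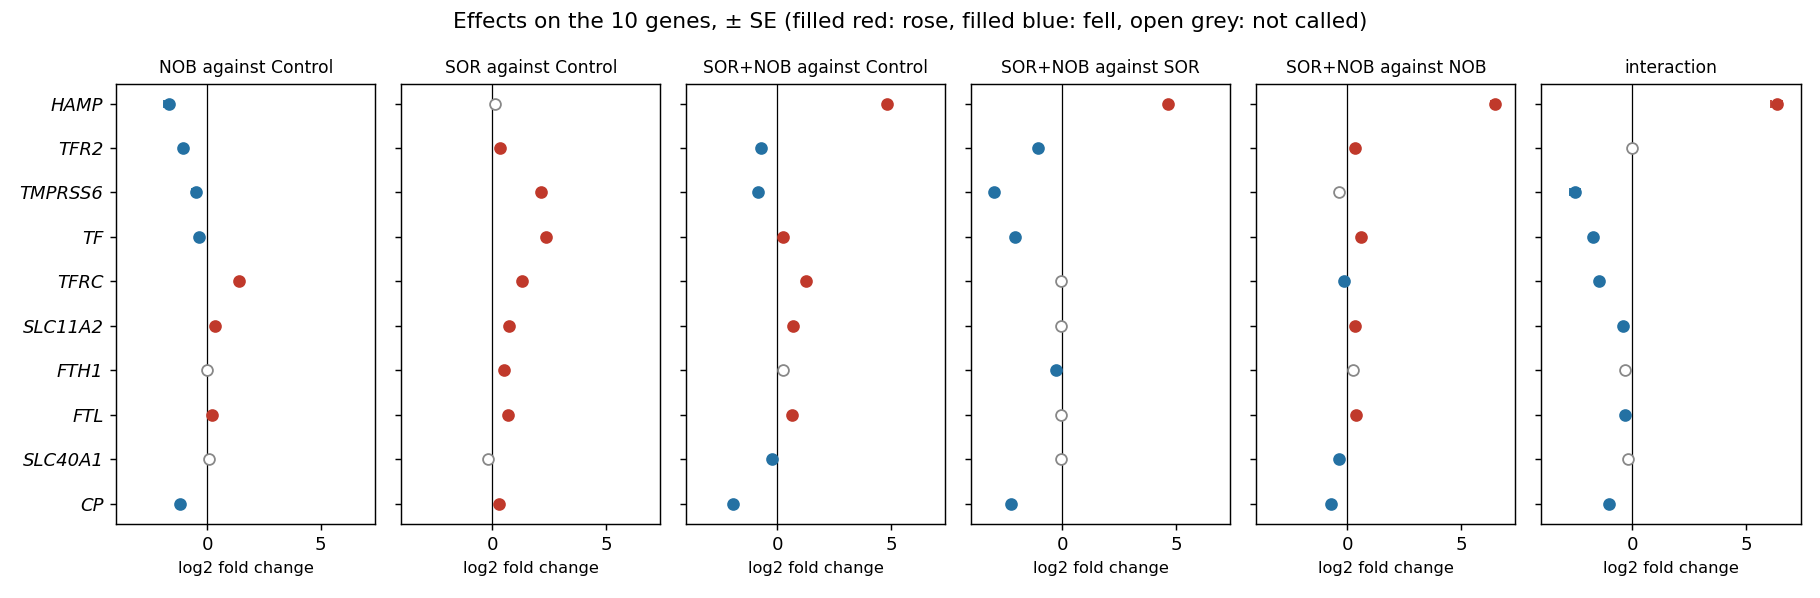
Log2 fold change of the 10 genes in the 6 comparisons, with points at the estimate and bars of 1 SE, which are mostly narrower than the points. Filled red points rose, filled blue points fell and open grey points were not called by edgeR; HAMP reaches 6.49 in SOR+NOB against NOB, and TMPRSS6 is at -2.998 in SOR+NOB against SOR.

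Nobiletin added to sorafenib called 6 of the 10 genes, against 63.0% of all genes tested (31.4% higher and 31.6% lower). HAMP rose, and TF, TFR2, FTH1, CP and TMPRSS6 fell. Sorafenib added to nobiletin called 8 of 10, against 60.7% of all genes (30.3% higher and 30.4% lower): HAMP, TF, TFR2, FTL and SLC11A2 rose, and TFRC, SLC40A1 and CP fell. The interaction was called in 7 of 10, against 52.0% of all genes (25.1% positive and 26.9% negative). It was positive for HAMP and negative for TF, TFRC, FTL, SLC11A2, CP and TMPRSS6. TF, TFRC, FTL and SLC11A2 with both compounds were thus below the sum of the single effects while still above Control. CP and TMPRSS6 were below that sum and below Control.

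**Figure D3:**
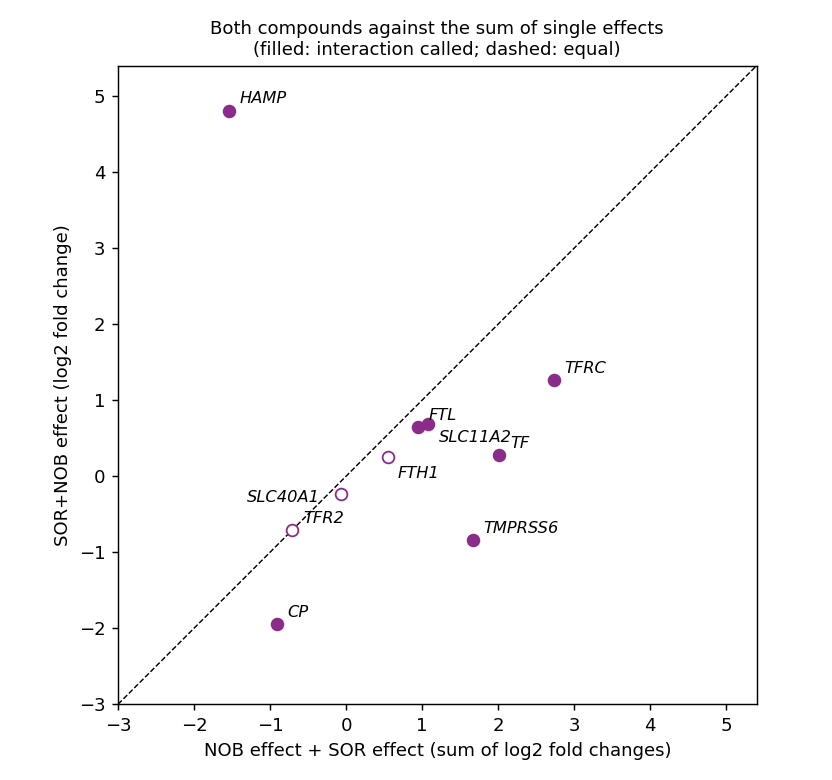
Log2 fold change against Control with both compounds, on the y axis, against the sum of the log2 fold changes of NOB and SOR, on the x axis, for the 10 genes; all share the Control libraries. Points on the dashed line are equal, and the vertical distance from it is the interaction, called by edgeR for filled points. HAMP lies 6.36 above the line, TMPRSS6 2.51 below it (interaction -2.51) and TFR2 on it.

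Between genes, levels were compared per length, as the deposited FPKM. FTL was the most abundant of the 10 in every group, with a mean FPKM of 2224 in Control, 2599 in NOB, 3605 in SOR and 3410 in SOR+NOB. FTH1 was next at 353, 354, 510 and 414, and TF followed at 94.9, 74.3, 483 and 113. HAMP was at 1.33 in Control and 36.6 in SOR+NOB, and TMPRSS6 at 1.39 and 0.760. The gene length in the file is that of all annotated exons together, 26199 bases for TF and 3010 for HAMP, against coding lengths of 2097 and 255 bases. Per kilobase of coding sequence, TF in SOR was at 5989 to 6237 CPM and FTL at 5824 to 6303 CPM, which overlapped, and FTH1 at 1825 to 1958 CPM. The order of TF against both FTL and FTH1 in SOR thus depends on the length used, and in Control TF at 1190 and FTH1 at 1302 CPM per kilobase of coding sequence were close.

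Genes of BMP and SMAD signalling, the main input to hepcidin transcription, were read from a list of 23, of which 19 were tested. In SOR+NOB against Control 12 rose and 3 fell, where 32.2% of all genes tested rose and 32.0% fell, and 5 fell without SOR+NOB library 1. The median log2 fold change was 0.41 against -0.02 for all genes. In NOB 7 rose and 3 fell (median 0.11 against 0.01), where 18.9% of all genes rose and 19.2% fell. In SOR 9 rose and 2 fell (median 0.16 against 0.00), where 21.7% of all genes rose and 19.3% fell. BMP2, BMP6 and HJV had too few counts to be tested, at most 4, 21 and 2 in a library.

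SMAD7, the inhibitory SMAD that BMP signalling induces as feedback, had the largest rise in SOR+NOB among the listed genes whose average over the 12 libraries was 2 CPM or more. It was at 11.3, 12.3 and 12.7 CPM in Control, 16.3, 17.5 and 18.6 CPM in NOB, 25.3, 29.97 and 30.5 CPM in SOR and 104.8, 143.1 and 137.2 CPM in SOR+NOB. Like HAMP it was highest in SOR+NOB, 10.6-fold above Control (3.41 ± 0.11, edgeR adjusted p = 1.37e-16), but unlike HAMP it rose in NOB (0.53 ± 0.12, adjusted p = 8.46e-04) and in SOR (1.24 ± 0.11).

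ID1, ID2 and ID3, BMP target genes that encode inhibitors of DNA binding, rose in SOR+NOB by 0.83 ± 0.05, 1.19 ± 0.06 and 2.14 ± 0.12 against Control. In NOB ID1 rose (0.69) and ID3 rose (1.17) where ID2 fell (-1.21), and in SOR ID1 fell (-0.45) and ID2 rose (0.69). ID2, like HAMP, was thus below Control in NOB and above it in SOR+NOB, and its interaction was 1.71 ± 0.08 (edgeR adjusted p = 9.6e-14). ACVR1, the type I receptor ALK2, rose 4.51-fold in SOR+NOB, from 17.0 ± 1.22 to 76.6 ± 5.55 CPM (mean ± SD, n = 3), and its partner type I receptor BMPR1A (ALK3) fell from 48.5 ± 0.896 to 28.8 ± 5.75 CPM. The ligand BMP4 fell in every treated group, from 140.6 ± 1.72 CPM in Control to 57.8 ± 2.57 in NOB, 51.9 ± 2.69 in SOR and 24.1 ± 1.63 in SOR+NOB. FURIN, a protease that processes BMP ligands, prohepcidin and hemojuvelin, rose by 1.59 ± 0.07 in SOR+NOB and by 0.69 ± 0.07 in SOR. ATOH8, a BMP-induced regulator of hepcidin named here after its values were seen, was at 2.14, 4.76 and 7.34 CPM in SOR+NOB and at most 0.389 CPM in the other libraries.

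**Figure D4:**
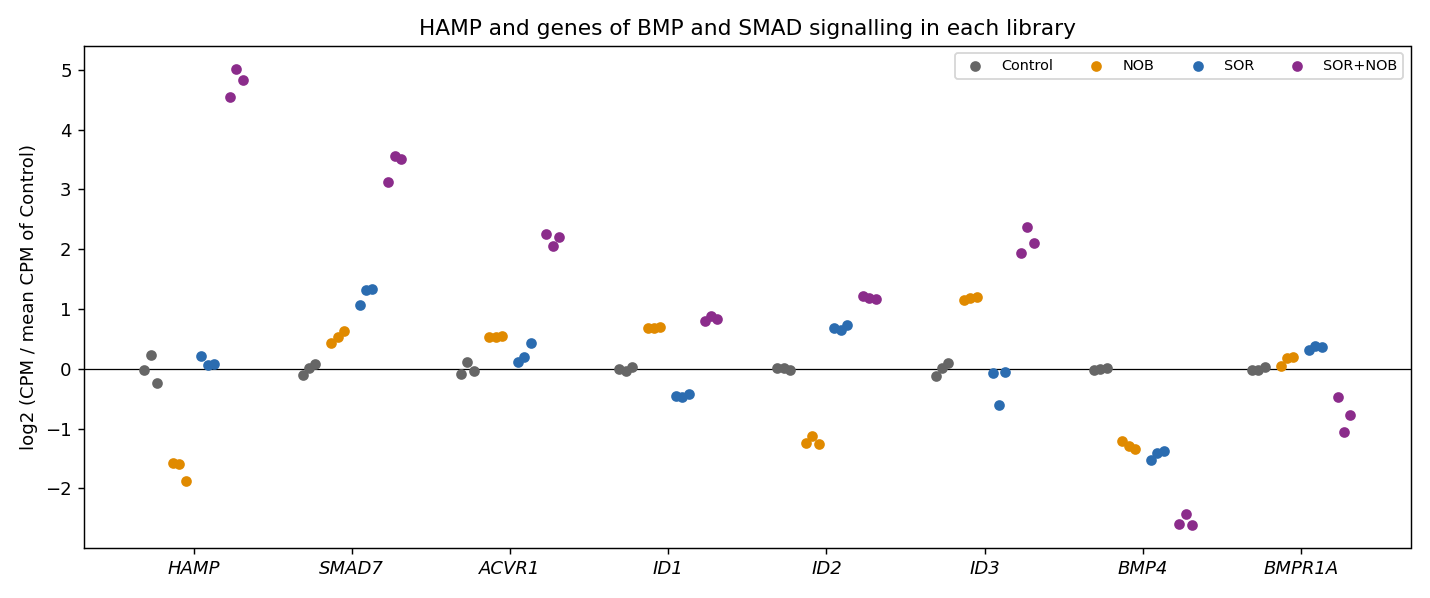
Level of HAMP and of 7 genes of BMP and SMAD signalling in every library, as log2 of CPM over the mean CPM of Control, with 3 points per group. SMAD7, ACVR1, ID1, ID2 and ID3 stand above Control in SOR+NOB together with HAMP, whereas BMP4 and BMPR1A stand below it.

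Genes of IL6 and STAT3 signalling, the inflammatory input to hepcidin, made a list of 11. IL6 itself had too few counts to be tested, at most 1 in a library, which left 10 genes. In NOB none rose and 7 fell, with a median of -0.42 against 0.01 for all genes, of which 18.9% rose and 19.2% fell. In SOR 3 rose and 3 fell (5 rose without SOR+NOB library 1), against 41.0% of all genes called. In SOR+NOB 3 rose and 5 fell, with a median of -0.25 against -0.02, where 64.2% of all genes were called. The interaction was positive in 7 and negative in 1 (2 without SOR+NOB library 1), where it was positive in 25.1% and negative in 26.9% of all genes. IL6R, the receptor of IL6, fell in NOB (-1.08 ± 0.07), SOR (-1.58 ± 0.07) and SOR+NOB (-0.80 ± 0.07, edgeR adjusted p = 4.65e-10). SOCS3, a STAT3 target that restrains the pathway, was at 6.97 ± 0.339 CPM in Control, 2.22 ± 0.778 in NOB, 0.491 ± 0.181 in SOR and 2.50 ± 0.270 in SOR+NOB. CREB3L3, a liver transcription factor of the acute phase that acts on the hepcidin promoter, fell from 39.4 ± 1.60 to 10.3 ± 0.101 CPM in NOB and stood at 26.9 ± 2.18 CPM in SOR+NOB. CEBPA, which binds the hepcidin promoter, fell by 0.41 ± 0.11 in NOB and rose by 1.48 ± 0.10 in SOR and by 1.11 ± 0.10 in SOR+NOB.

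Iron regulatory proteins, the ubiquitin ligase subunits that control them and some mRNAs they bind (EPAS1, CDC14A, CDC42BPA and the untested ALAS2) made a list of 9, of which 8 were tested. In NOB 5 rose and 1 fell (3 rose without any 1 of Control libraries 1 and 3 and NOB libraries 2 and 3), with a median of 0.21 against 0.01 for all genes, of which 38.2% were called. In SOR 4 rose and 1 fell, with a median of 0.20 against 0.00 and 41.0% of all genes called. In SOR+NOB 4 rose and 3 fell (1 fell without SOR+NOB library 2), with a median of 0.18 against -0.02 and 64.2% of all genes called. ACO1, iron regulatory protein 1, rose from 39.3 ± 2.51 CPM to 58.3 ± 2.90 in NOB, 59.2 ± 2.18 in SOR and 71.3 ± 4.76 in SOR+NOB. FBXL5, the iron-sensing ubiquitin ligase subunit that directs iron regulatory proteins to degradation, rose by 0.72 ± 0.10 in SOR and 1.21 ± 0.10 in SOR+NOB (edgeR adjusted p = 2.65e-10). IREB2, iron regulatory protein 2, was at 103.1 ± 0.396 CPM in Control, 118.0 ± 6.06 in NOB, 126.8 ± 3.78 in SOR and 86.3 ± 11.7 in SOR+NOB. IREB2 rose by 0.30 ± 0.07 in SOR and fell by 0.26 ± 0.07 in SOR+NOB. Its rise in NOB (0.19 ± 0.07, adjusted p = 0.038) was not called without any 1 of the Control or SOR libraries or of NOB libraries 2 and 3, at 0.16 to 0.20. DESeq2 (adjusted p = 0.0671), RLE scaling, a replicate block and limma on FPKM did not call it either. The call was kept with library totals, no filter and only the compared libraries. ACO1 and TFRC both rose in all treated groups, and a link between them was not tested.

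Other transporters, reductases and iron chaperones were tested in 13 of 18 listed, and in SOR+NOB 5 rose and 2 fell, with a median of 0.17 against -0.02 for all genes, of which 64.2% were called. SLC39A14 (ZIP14), which imports iron that is not bound to transferrin, fell from 1284 ± 31.2 to 740 ± 23.3 CPM (-0.80 ± 0.05, edgeR adjusted p = 2.3e-12). The iron chaperone PCBP1 rose by 0.75 ± 0.08 and the ferrireductase STEAP1 by 0.78 ± 0.09. In NOB, NCOA4, which carries ferritin to lysosomes, fell by 0.31 ± 0.06 (adjusted p = 1.29e-04).

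Of 12 genes of heme and hemoglobin handling, 11 were tested. In SOR 7 rose and 1 fell (2 fell without any 1 of the SOR+NOB libraries), with a median of 0.36 against 0.00 for all genes, of which 41.0% were called. In SOR+NOB 3 rose and 5 fell, with a median of -0.20 against -0.02 and 64.2% of all genes called. HMOX1, which releases iron from heme, fell from 28.2 ± 3.66 CPM in Control to 3.71 ± 0.421 in NOB and 6.83 ± 1.10 in SOR+NOB, 7.59-fold and 4.09-fold (edgeR adjusted p = 1.07e-13 and 4.5e-12). In SOR HMOX1 was at 36.0 ± 0.971 CPM, a rise of 0.36 ± 0.11 (adjusted p = 0.013) that was not called without Control library 3 (0.26, adjusted p = 0.0993). The heme scavenger HPX was, like TMPRSS6, highest in SOR, at 6.24 ± 0.647 CPM in Control, 0.948 ± 0.565 in NOB, 32.0 ± 0.687 in SOR and 6.93 ± 0.569 in SOR+NOB. Haptoglobin (HP), an acute phase protein that binds hemoglobin, fell by 2.19 ± 0.07 in NOB. In SOR+NOB HP was at -0.13 ± 0.06 against Control (adjusted p = 0.0746) and was called without SOR library 2 (-0.14, adjusted p = 0.0467) or SOR+NOB library 2 (-0.20, adjusted p = 0.0069). DESeq2 (adjusted p = 0.034), RLE scaling, no filter and limma on FPKM with either pseudocount called this fall of HP too. FLVCR1, a heme exporter and choline transporter, rose by 0.88 ± 0.08 in SOR and fell by 0.72 ± 0.09 in SOR+NOB.

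Iron-sulfur cluster assembly, a main use of cellular iron, was tested in 23 of 24 listed genes. In SOR+NOB 15 rose and 3 fell (1 fell without Control library 1 or without Control library 2), with a median of 0.34 against -0.02 for all genes, of which 32.2% rose and 32.0% fell. In SOR 9 rose and 3 fell, with a median of 0.09 against 0.00 and 41.0% of all genes called. BOLA3, which passes clusters to mitochondrial enzymes, rose from 10.7 ± 1.41 to 38.3 ± 2.59 CPM in SOR+NOB (1.84 ± 0.11, edgeR adjusted p = 4.12e-12), and NFS1, the cysteine desulfurase, rose by 1.03 ± 0.08. CIAO1, of the cytosolic assembly complex, fell by 0.34 ± 0.06.

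**Figure D5:**
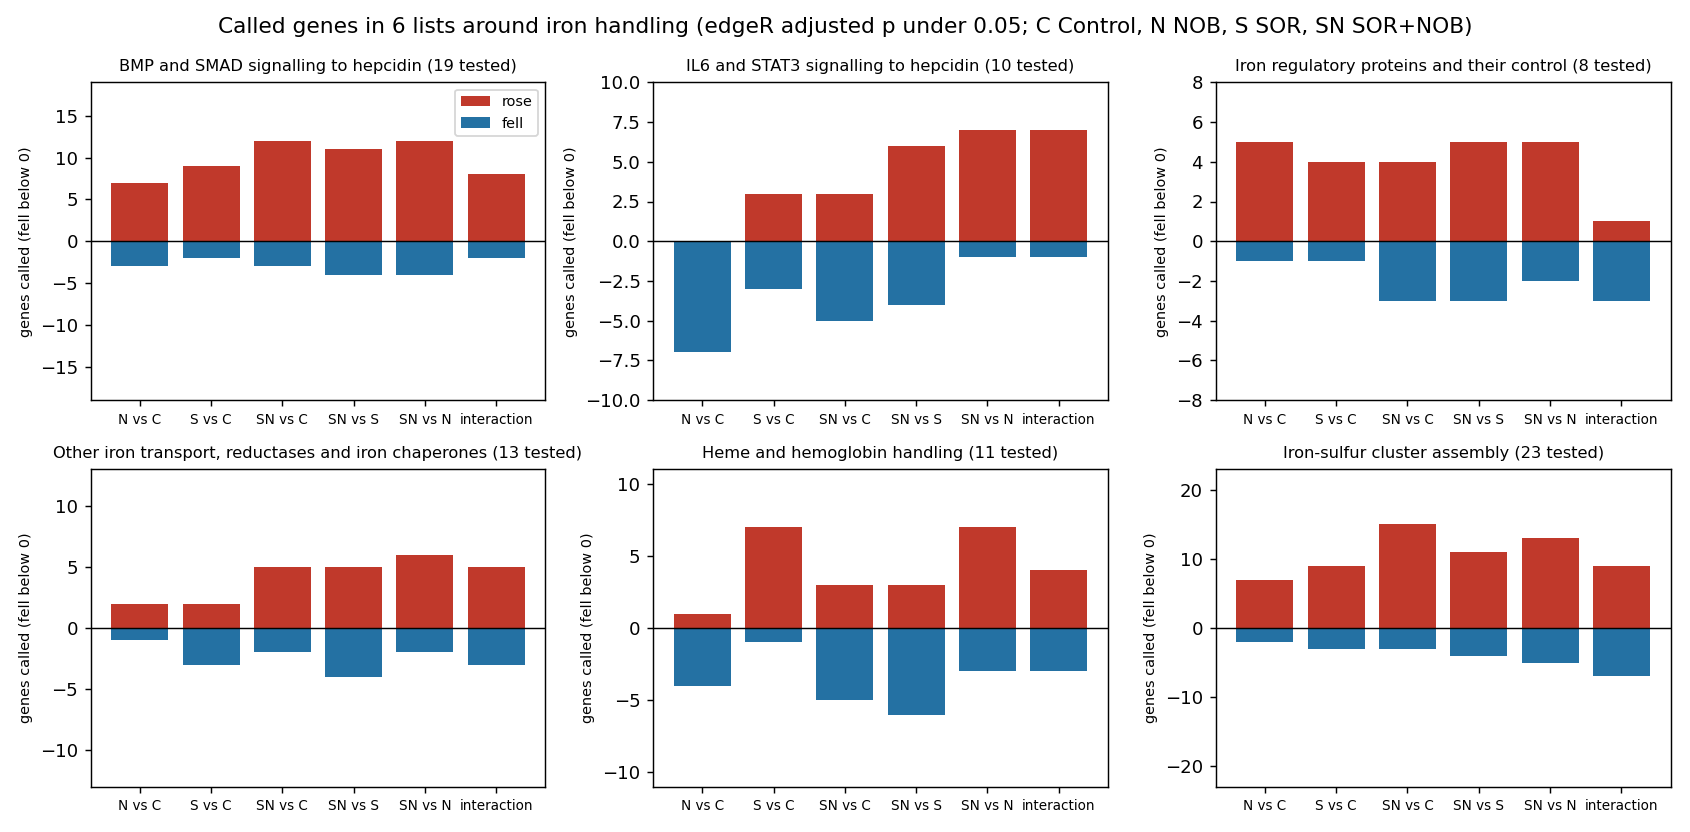
Number of genes called by edgeR in 6 lists around iron handling, in each of the 6 comparisons, with rises drawn above 0 and falls below it; each axis spans the number tested in that list. In SOR+NOB against Control, 12 of 19 genes of BMP and SMAD signalling and 15 of 23 of iron-sulfur cluster assembly rose, against 32.2% of all genes tested, and in NOB no gene of IL6 and STAT3 signalling rose, against 18.9%.

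The genes with the pattern most like HAMP were sought among the 11112 protein-coding genes whose average over the 12 libraries was 2 CPM or more, by the root mean square difference of centred log2 CPM over the 12 libraries. They were NEURL3 (0.62), SLC44A2 (0.71), ANKRD33B (0.75), HRH3 (0.84) and NR1D1 (0.88). NEURL3, of the neuralized family of ubiquitin ligases, was at 0.598 ± 0.114 CPM in Control, 0.353 ± 0.149 in NOB, 1.51 ± 0.352 in SOR and 53.6 ± 6.89 in SOR+NOB. SLC44A2, a choline transporter-like protein, was at 17.8 ± 0.689, 10.4 ± 0.255, 15.9 ± 1.32 and 229 ± 1.10 CPM in the same order, and NR1D1, the circadian repressor REV-ERB alpha, at 25.6 ± 2.85, 14.7 ± 2.31, 16.4 ± 1.10 and 249 ± 2.32 CPM. NEURL3, ANKRD33B and HRH3 passed that minimum only through SOR+NOB, where ANKRD33B and HRH3 were at 8.04 ± 1.43 and 11.05 ± 2.01 CPM. Every library of the other groups was at most at 1.76 CPM for NEURL3, 0.102 CPM for ANKRD33B and 0.088 CPM for HRH3. These genes were chosen for their likeness, so no test of it is given.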

How the data were processed

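The authors deposited a table of raw read counts per gene and tables of FPKM. The submitters' processing notes name HISAT2 2.0.5 (an aligner), featureCounts 1.5.0-p3 (a read counter) and the build GRCh38. Per the labels, libraries were made by poly(A) capture or by rRNA removal; which of these was used is not stated. No source used here gives the strand setting or the treatment of reads with several matches. The deposited FPKM was used for levels between genes and in 2 alternatives. No labels give a batch.

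Counts of the 12 libraries were fitted in R 4.3.3 with edgeR 4.0.16 (filterByExpr, TMM scaling, robust quasi-likelihood, 1 mean per group, 8 residual degrees of freedom). Benjamini-Hochberg adjustment ran over all 17115 genes within each comparison, and genes with an adjusted p under 0.05 were called. The 95% intervals are the SE times the t quantile at 8 degrees of freedom, not adjusted over genes. CPM uses TMM-adjusted totals.

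The 10 genes and the gene lists were chosen with earlier results of these data known. Named genes were the 10, the 2 called genes with the largest rise and the 2 with the largest fall of each list and comparison whose average over the 12 libraries was 2 CPM or more, and the 5 genes most like HAMP. Same-numbered libraries did not deviate together (18 pairs, median correlation across genes of -0.0087, range -0.05 to 0.044), so numbers were not used as pairs. Alternatives were DESeq2 1.42.0, RLE scaling, library totals (added after the data were seen), no filter, only the compared libraries, a replicate block, limma 3.58.1 on log2 FPKM with pseudocounts of 1 and 0.1 (mean FPKM of at least 0.5), counts summed with ferritin pseudogenes, and leaving out each library. Plots were made in matplotlib 3.10.9 under Python 3.11.15. Promoter sequence is not reported here.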

Additional observations from a re-analysis of the deposited data

Results flagged for a closer look

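The effect of nobiletin differed between cells without and with sorafenib in 7 of the 10 genes, by edgeR's test of the difference itself, against 52.0% of all genes tested. As the effect with sorafenib minus that without, on the log2 scale, HAMP was at 6.36, TMPRSS6 at -2.51, TF at -1.73, TFRC at -1.47, CP at -1.03, SLC11A2 at -0.39 and FTL at -0.30. For HAMP the effect changed from a fall to a rise. For TF, CP and TMPRSS6 nobiletin gave a fall in either case, and the fall was larger with sorafenib. TFRC, SLC11A2 and FTL rose with nobiletin alone and were not called when it was added to sorafenib. All 3 libraries of each group gave these directions for HAMP, TF, CP and TMPRSS6.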

How the results depend on the processing

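Among alternative values of single comparisons of the 10 genes, 1174 stayed called or not called, 13 gained a call and 15 lost one. The gains and losses were all in FTH1, SLC40A1, TFRC and TMPRSS6, and no called value changed sign. The 1174 include values that were not called either way and changed sign. An example is FTL in SOR+NOB against SOR, which ranged from -0.10 to 0.08. HAMP kept its direction and calls under all alternatives; against Control its rise in SOR+NOB ranged from 4.01 to 4.93 and its fall in NOB from -1.79 to -0.72, the smaller size with FPKM and a pseudocount of 1, which understates the change of low genes. Leaving out a library gave 7 to 8 members called in NOB, 8 to 9 in SOR and 8 to 10 in SOR+NOB. It gave 5 to 7 for SOR+NOB against SOR, 7 to 9 against NOB and 7 to 8 for the interaction. Over all genes, leaving out a library gave 5499 to 7955 called in NOB (6536 in the main fit) and 5983 to 8403 in SOR (7020). In SOR+NOB against Control it gave 10077 to 11259 (10981). With only the compared libraries, 8350 genes were called in NOB, 8578 in SOR and 10030 in SOR+NOB. The percentages of all genes given above are those of the main fit. DESeq2 also called FTH1 in SOR+NOB against Control (0.23, adjusted p = 0.0295) and against NOB (0.23, adjusted p = 0.0361). With only the compared libraries, SLC40A1 in SOR was called (-0.18, adjusted p = 0.0226), and calls were lost for SLC40A1 (adjusted p = 0.0598) in SOR+NOB against Control, FTH1 (0.052) against SOR and TFRC (0.0517) against NOB. Scaling by library totals shifted the median of all genes by -0.103 in SOR and by 0.147 in SOR+NOB against SOR, and there SLC40A1 fell in SOR (-0.28, adjusted p = 0.0131) and lost its call in SOR+NOB against Control (-0.20, adjusted p = 0.0515), while FTH1 lost its call against SOR (-0.13, adjusted p = 0.376). Among genes of the lists, 2 values changed sign where the main fit or the alternative called them. HSPA9 in SOR+NOB against SOR was 0.12 with library totals, and the HPX interaction was -0.65 with FPKM and a pseudocount of 1. The cause was not tested, and changes of sign where neither was called were not counted. With a replicate block for the numbers, 8, 8, 9, 6, 8 and 7 members were called in the 6 comparisons. No call of a member changed. Over all genes, that block gave 6347, 6816, 10798, 10650, 10212 and 8741 called in the same order. HAMP in NOB rests on 27 to 32 counts per library, which limits its precision, and depth was lowest in SOR+NOB library 1.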
